A study of Mus musculus with 2 samples.

Results

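The genes of the cytosolic ribosomal proteins were compared between EpiSC and ELA-EpiSC. Members were all genes that the array files name as a large subunit protein (Rpl), a small subunit protein (Rps), an acidic stalk protein (Rplp0, Rplp1 or Rplp2) or Rpsa, with an optional a, x, l or y after the number. The rule gave 80 genes, 48 of the large and 32 of the small subunit, among 25851 genes detected on at least 1 array, and it chose genes by name, without their differences. Signal and detection entered only in the choice of the probe that stands for each gene. It left out genes of the same particle with other names, such as Rps3a1 and Fau. A RefSeq gene table held all 80 names and listed 79 as protein coding and Rps4l as a transcribed pseudogene.

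The ribosome is built in the nucleolus from rRNA and one copy of most ribosomal proteins, so the mRNAs of these proteins are needed in like amounts and make up a large share of the mRNA of growing cells. Many of them start with a cytosine inside a run of pyrimidines, the 5′ terminal oligopyrimidine (TOP) motif, through which mTORC1 and the RNA binding protein Larp1 control their translation. Surplus Rpl5 and Rpl11 bind Mdm2 with 5S rRNA and stabilise p53. Embryonic stem cells and epiblast cells divide quickly and have a high demand for ribosomes.

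Both cultures were derived from E14Tg2A, an embryonic stem (ES) cell line of mouse strain 129/Ola, so the comparison rests on 1 line. EpiSC, epiblast stem cells, were made from ES cells by adding Activin A (20 ng/mL) together with FGF2 (12 ng/mL) in defined minimal medium with N2/B27, and ELA-EpiSC were made with those factors from Epiblast-Like Aggregates (ELA), clusters that form when ES cells lose serum and LIF. Each was read by 1 one-colour Agilent array with RNA pooled from 3 experiments, so no p-value can be given and the number of arrays limits the precision. The source field of the EpiSC sample speaks of an Argonaute precipitate of undifferentiated cells and that of the other sample of their total RNA. The titles were followed here.

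All 80 genes were detected on both arrays, 0 spots were saturated, and 185 probes of 60 bases read them, 1 for 20 genes and up to 7 for the others. A difference is log2 ELA-EpiSC minus log2 EpiSC after quantile normalization, at the brightest detected probe of the gene. The only error that could be measured was that of replicate spots. For 234 probes printed 10 times each, spots varied in their difference with a pooled (root mean square) SD of 0.10, which covers neither labelling nor culture. Log2 differences of 0.5 and 1 were used as thresholds of size among the 16653 genes whose mean log2 was 7.5 or more.

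Start sites are shown first, since the TOP motif is what sets many of these mRNAs apart. RefSeq promoter windows of GRCm38.p6, 250 bases before and 50 after each start, were found for 59 of the 80 genes, in 71 windows. A start on C followed by at least 4 more pyrimidines was listed in 13 of the 71 windows (18.3%) and in 823 of all 32851 windows (2.51%). The stretches below run from 15 bases before the start to 15 after it, so that the first transcribed base is base 16. Capitals mark the unbroken run of pyrimidines around the start. They are the 3 genes with the longest runs and the 2 genes of this kind with the lowest differences.
Rpl35, chr2:39005117-39005146, minus strand: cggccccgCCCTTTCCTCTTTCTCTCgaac
Rpl15, chr14:18270972-18271001, minus strand: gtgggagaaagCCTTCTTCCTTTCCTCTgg
Rpl14, chr9:120571502-120571531, plus strand: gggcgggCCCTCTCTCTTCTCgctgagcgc
Rps27, chr3:90213634-90213663, minus strand: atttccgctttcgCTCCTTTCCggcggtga
Rps10, chr17:27635230-27635259, minus strand: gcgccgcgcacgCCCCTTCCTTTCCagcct

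The runs are 18 bases long in Rpl35, 17 in Rpl15, 14 in Rpl14, 9 in Rps27 and 13 in Rps10. A run of 8 or more pyrimidines within 20 bases of the start was present in 42.3% of the member windows and 16.05% of all windows. CCGGAAG, the core that ETS factors such as Gabpa bind, was found on either strand in 25 of the 71 windows (35.2%), against 8.86% of all windows. AAGATGGC, a core of YY1 sites, was found in 7 (9.86%, against 2.75%), GGGCGG, the core of Sp1 sites, in 41 (57.7%, against 35.7%), and TATAAA in 6 (8.45%, against 13.6%). The 13 genes whose listed start is C with at least 4 pyrimidines after it had a median log2 difference of -0.10, with 1 gene higher in ELA-EpiSC, and the 46 other genes with a window had a median of -0.04, with 15 higher. Both medians lay within the spot SD of 0.10. The split rests on the exact base listed as the start, so a gene with a pyrimidine run beside that base counts among the others. No test of the difference between these sets was run.

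The 80 mRNAs differed little between the cultures. The median log2 difference was -0.04, and except for Rpl10l all differences fell in the range from -0.44 to 0.16. Of the 77 members with a mean log2 of at least 7.5, 0 passed an absolute difference of 0.5 and 0 passed 1. Among all genes at that signal, 27.3% passed 0.5 and 9.03% passed 1. The SD of the differences was 0.13 over the 77 members and 0.65 over all 16653 genes. For 45 of the 77 (58.4%) the difference was smaller than the spot SD, against 20.0% of all genes. More members were lower than higher in ELA-EpiSC. In the 77, 22 were higher (28.6%, against 50.2% of all genes), 54 were lower, and Rpl41 was at 0.00. Rpl41 was the brightest probe on both arrays, where quantile normalization gives equal values by construction. It was named after its value was seen. Past the spot SD, 28 were lower and 4 were higher, and all genes were not counted by direction at that size. Directions here and below are those after quantile normalization. In another setting, called equal spike-ins, 1 constant removed the mean difference of the 8 detected spike-in probes (-0.54). There, every one of the 80 was higher in ELA-EpiSC and the median of all genes moved to 0.54. Single spike-in probes differed by -0.86 to -0.26, so 1 constant does not set each of them equal. The plot of all members shows the narrow band and its tail toward lower values.

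**Figure D1:**
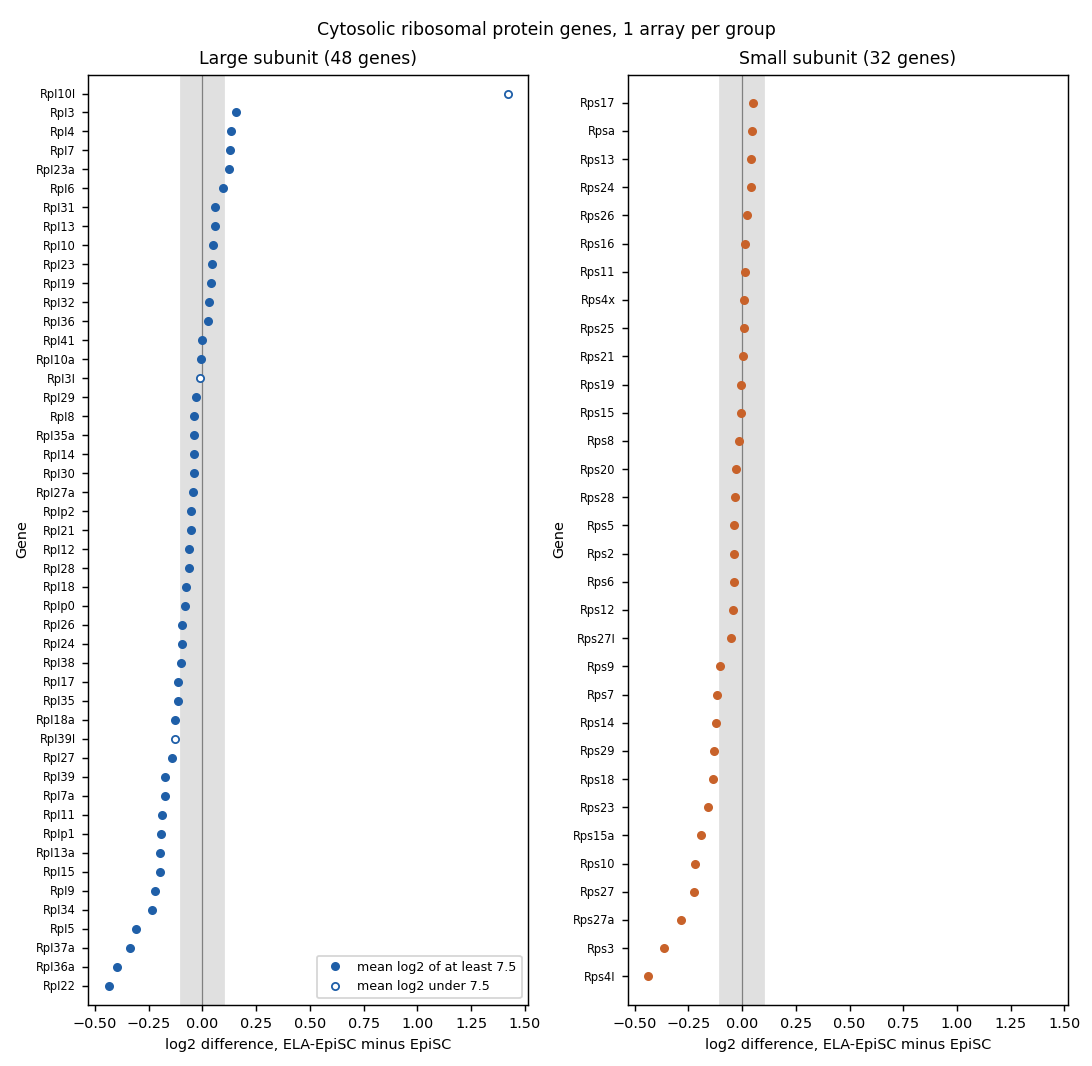
Log2 difference (ELA-EpiSC minus EpiSC, x axis) of each of the 48 large subunit and 32 small subunit genes (y axis, ordered by difference), 1 array per group. Grey marks 1 spot SD (0.10) on each side of 0 and open circles mark the 3 genes whose mean log2 was under 7.5; apart from Rpl10l at 1.42, the points lie between -0.44 and 0.16.

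Signal strength bears on this comparison. Of the 77 genes, 76 had a mean log2 of at least 16, where other genes varied less as well. The 860 other genes in that range had an SD of 0.26 and a median of 0.00, 6.40% of them passed 0.5 and 34.3% lay within the spot SD. The 76 members had an SD of 0.12 and a median of -0.04, and 59.2% lay within the spot SD. Of the 554 detected probes with a mean log2 over 17, 113 (20.4%) read these genes, so their signals are themselves part of what the normalization equates at the bright end. The part of this in the result was not tested.

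**Figure D2:**
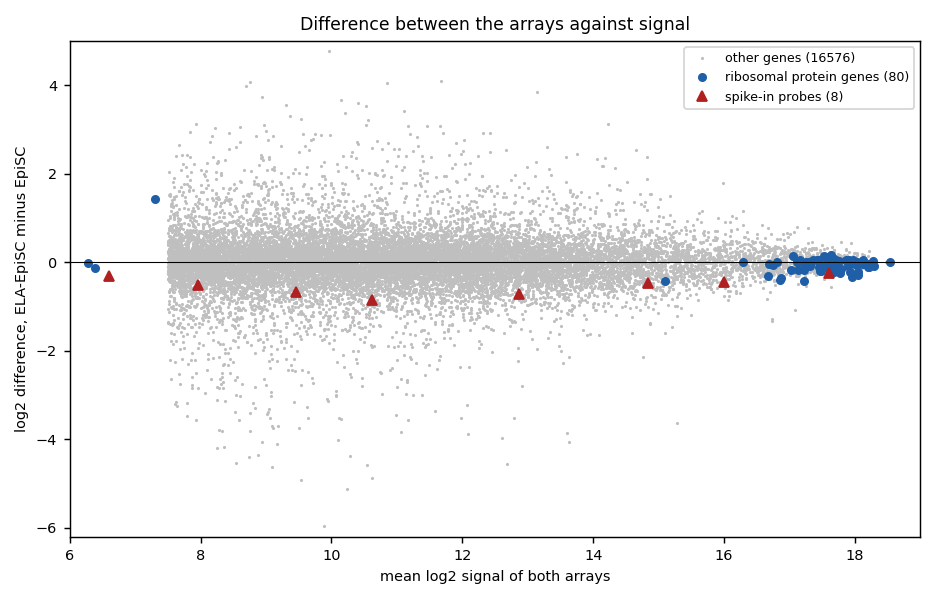
Log2 difference (y axis) against the mean log2 signal of both arrays (x axis) for 16576 other genes of mean log2 at least 7.5 (grey), the 80 ribosomal protein genes (blue) and 8 detected spike-in probes (red triangles). The blue points crowd at the bright end, where grey points spread less, and the triangles lie between -0.86 and -0.26.

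In bulk RNA, fewer cells of a type and less RNA per cell cannot be told apart. All 10 EpiSC identity markers, Pou5f1, Sox2 and Fgf5 among them, were detected on both arrays. Of these, 1 was higher by more than 1 (T, a primitive streak factor, from 11.19 to 13.67, 2.48), Utf1 differed by 0.61 and Dnmt3b by -0.84. Their summed signal was 18.28 in EpiSC and 18.15 in ELA-EpiSC (log2), but 7 of the 10 were higher in ELA-EpiSC, with a median of 0.17. Dnmt3b, the brightest of the 10, went from 17.07 to 16.24. Of 9 visceral endoderm markers, 6 were lower in ELA-EpiSC by more than 1, with a summed signal of 14.58 in EpiSC and 11.27 in ELA-EpiSC (Hnf4a -5.12, Ambp -4.54, Ttr -3.47), and the other 3 differed by 0.55 (Apob), 0.21 (Afp) and 0.11 (Cubn). Of 7 neural markers, 1 was higher by more than 1 (Nes, 2.10), Pax6 was not detected, and the sums were 12.63 and 14.50. Of 7 fibroblast markers, 2 were higher by more than 1 (Col1a1, 3.72, and Col3a1, 1.88), Lum was not detected, and the sums were 11.77 and 12.43. The part of these cell types in the ribosomal protein values was not tested.

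The subunits were described apart. The 45 large subunit genes of mean log2 at least 7.5 had a median of -0.06 (12 higher, 32 lower), and the 32 small subunit genes had a median of -0.04 (10 higher, 22 lower). Over all 80 genes, the large subunit median minus the small subunit median was -0.02, and no test of it was possible.

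Below -0.30, past 3 times the spot SD, lay 6 of the 77 genes, and 0 lay above 0.30. The share of all genes past 0.30 was not counted. Their interquartile range was -0.28 to 0.27 over all 16653 genes. It was -0.13 to 0.15 over the 860 other genes of mean log2 at least 16. Rps4l, the relative of Rps4x that RefSeq lists as a pseudogene, went from 15.31 in EpiSC to 14.88 in ELA-EpiSC on its only probe, a difference of -0.44. Rpl22, a large subunit protein that most cells can lack and that developing T cells need, went from 17.44 to 17.01 (-0.43), and its dimmer probe gave -0.65. Rpl36a, encoded on the X chromosome, went from 17.06 to 16.66 (-0.40), and its 3 probes, not all on separate sites, lay between -0.48 and -0.38. Each of these 3 genes was thus lower in ELA-EpiSC on every detected probe.

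Their relatives outside the rule were read too. Rpl22l1, the paralog of Rpl22, went from 16.56 to 16.02 (-0.53). Rpl36al, the paralog of Rpl36a, went from 15.83 to 15.31 (-0.52), and Rpl7l1, which works in ribosome assembly, from 10.57 to 10.54 (-0.03). Both genes of the Rpl22 pair and of the Rpl36a pair were therefore lower in ELA-EpiSC.

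Rps3, which lines the mRNA entry channel of the small subunit, went from 17.05 to 16.69 (-0.36), but its 3 probes ran from -0.36 to 0.06. Rpl37a, a zinc-binding large subunit protein, went from 18.13 to 17.79 (-0.34), and its other probe, on an overlapping site, gave -0.19. Rpl34 went from 17.89 to 17.65 (-0.24), and its other probe gave -0.15. For Rps3 the sign thus depended on the probe, and for Rpl37a and Rpl34 only the size did.

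At the other end, Rpl3, which reaches toward the peptidyl transferase centre, went from 17.55 to 17.71 (0.16), but its other probe gave -0.14. Rpl4, which lines the exit tunnel of the nascent chain, went from 16.98 to 17.12 (0.13) on 1 probe. Rpl7 went from 17.47 to 17.60 (0.13), with its 4 probes between -0.16 and 0.13. Rpl23a, at the mouth of the exit tunnel, went from 17.50 to 17.63 (0.12), and its other probe gave 0.01. Rpl6 differed by 0.09, Rpl31 by 0.06 and Rpl13 by 0.06, all under the spot SD. No member above a mean log2 of 7.5 was higher by more than 2 spot SDs.

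The P stalk, which recruits the elongation factors, had 4 of 4 genes lower in ELA-EpiSC, where 54 of the 77 members were lower in all. Its base Rplp0 went from 18.34 to 18.26 (-0.08), Rplp1 from 17.86 to 17.66 (-0.19), Rplp2 from 18.22 to 18.17 (-0.05), and Rpl12, beside the stalk, from 18.06 to 18.00 (-0.06). Of the 4, Rplp1 alone passed the spot SD, and its other probe gave 0.02.

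The 5S particle genes were both lower by more than the spot SD, as were 28 of the 77 members in all. Rpl5 went from 16.82 to 16.51 (-0.31) on 1 probe and Rpl11 from 17.80 to 17.61 (-0.19), with 3 probes between -0.22 and 0.03. Rps27a, whose precursor releases ubiquitin and a ribosomal protein, went from 18.19 to 17.90 (-0.29), with 3 probes between -0.60 and -0.01. Fau, whose precursor carries a ubiquitin-like part, went from 18.07 to 17.87 (-0.20). Both passed the spot SD.

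Of 8 exit tunnel genes, 4 were higher and 4 lower, with a median of -0.03. Of 13 genes mutated in Diamond-Blackfan anaemia, an inherited failure of red cell production, 3 were higher and 10 lower, with a median of -0.09 and a range from -0.31 to 0.05. Of 4 X-linked members, 2 were higher and 2 lower, with a median of -0.08. Of the 77 members in all, 22 were higher (28.6%, against 50.2% of all genes) and 54 lower. No gene of these lists passed 0.5, and neither did any other of the 77.

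Paralog members named with a final l behaved unlike each other. Rpl10l, an intronless copy of the X-linked Rpl10 that works in spermatogenesis, was the only one of the 80 past 1, at 6.60 in EpiSC and 8.02 in ELA-EpiSC (1.42). The size depended on the background treatment, and over 11 other treatments of the arrays it ran from 1.25 to 2.36 on this probe, or 2.38-fold to 5.14-fold. Its mean spot signal was 63.6 units in EpiSC and 246.6 in ELA-EpiSC over a local background of about 26 and 25, so it fell under the mean log2 of 7.5 used for the counts. The second Rpl10l probe gave -0.03, but at 46.3 units in EpiSC and 47.7 in ELA-EpiSC it lay near background on both arrays. It therefore cannot serve as a check on the first probe, so the Rpl10l difference rests on 1 probe.

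Rpl39l, the testis paralog of Rpl39, went from 6.45 to 6.32 (-0.13), and Rpl3l, the striated muscle paralog of Rpl3, from 6.28 to 6.27 (-0.01). These 2 signals lay near background on both arrays. Rps27l, a p53-responsive paralog of Rps27, went from 16.71 to 16.66 (-0.05). Rps27l and Rps4l were thus read far above background, Rpl39l and Rpl3l near it on both arrays, and Rpl10l near it on the EpiSC array.

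The differences became larger at dimmer probes of the same genes. Probes of members with a mean log2 of 16 and over numbered 151, with a median difference of -0.05 (44 higher, 106 lower). Those between 7.5 and 16 numbered 27, from 24 genes, with a median of -0.39, and 26 of the 27 were lower in ELA-EpiSC, the exception being 1 Rps3 probe at 0.06. With the mean of the spike-in probes set equal by 1 constant, the median of these 27 was 0.15, against 0.54 for all genes. Among 20778 probes of other genes in the same range the median was 0.00, the SD was 0.65 and 50.0% were lower. The dim probes thus lay on one side more often than the background share.

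Among detected probes with a mean log2 of at least 7.5, the dimmest of a gene lay more than 2 log2 units under the brightest in 17 genes, and in 16 of them, all but Rps3, it gave the lower difference, by a median of -0.34. Without that minimum there were 19 such genes, with the dimmest probe lower in 17, all but Rps3 and Rps15a, and a median of -0.32. The examples here were chosen after their values were seen. Rpl39 went from 17.21 to 17.04 on its brightest probe (-0.17) and from 10.78 to 9.94 on its dimmest (-0.83). Rpl31 went from 17.38 to 17.44 (0.06) and from 12.85 to 12.11 (-0.74). Rps25 went from 17.24 to 17.25 (0.01) and from 8.93 to 8.26 (-0.67). The brightest and the dimmest probe of Rpl31 and Rps25 thus lay on opposite sides of 0. Rpl23 had a probe printed 10 times, which went from 14.13 to 13.69. All 10 spots were lower in ELA-EpiSC, by a mean of -0.44 ± 0.09 (SD over spots, n = 10), while its brightest probe gave 0.04.

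In the 42 genes whose probes above that minimum lay within 2 log2 units, the dimmest gave the lower difference in 18, with a median of 0.03. Other genes with probes that far apart showed a smaller shift of the same sign. Over 1649 such genes the median was -0.06, with the dimmest probe lower in 964, and over the 92 whose brightest probe reached 16 it was -0.23, with 68 lower. Spike-in probes, control RNA added during labelling, were lower on the ELA-EpiSC array as well. The 8 detected ones had differences between -0.86 and -0.26 on the normalized scale. The brightest gave -0.26 and the dimmest -0.32, and the probe at -0.86 lay between them in signal. The part of signal compression in the ribosomal protein values was not tested.

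**Figure D3:**
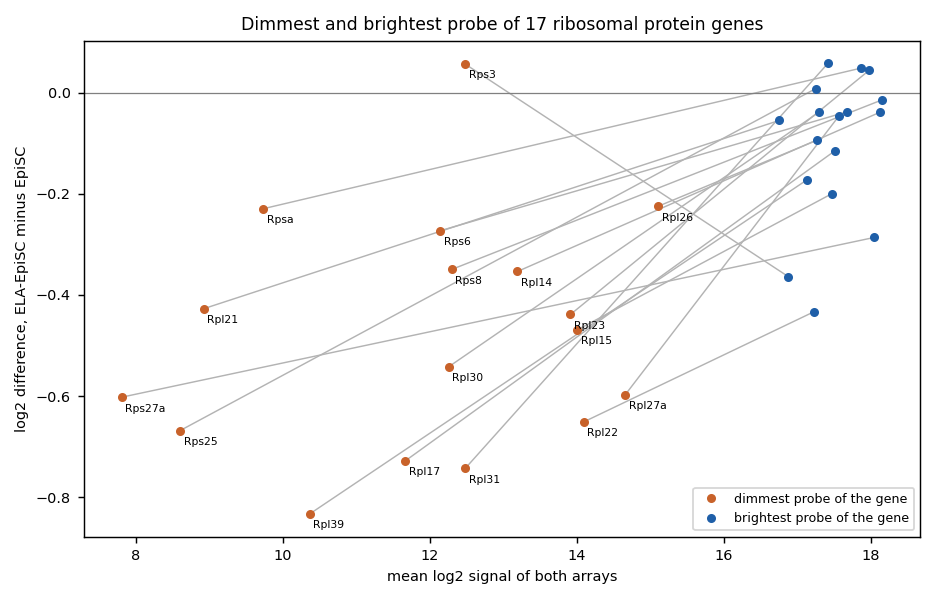
Log2 difference (y axis) against mean log2 signal (x axis) of the dimmest (orange) and brightest (blue) detected probe, among those with a mean log2 of at least 7.5, of the 17 ribosomal protein genes whose probes lie more than 2 log2 units apart; a line joins the probes of 1 gene. The lines climb to the right in 16 genes, the exception being Rps3.

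Only 1 of the 151 bright member probes passed 0.5. It belongs to Rps24, a small subunit protein whose mRNA is known to be spliced into forms that differ in short exons near the 3′ end, and it was singled out after its value was seen. The probe matches mm9 from position 25312695 to 25315015 of chromosome 14 and therefore crosses an intron. Its difference was -0.77. The probe that matches upstream, also across an intron, gave -0.01, and the 2 overlapping probes that match downstream gave 0.04 and 0.06. The gap between the crossing probe and the brightest one was -0.82, and over 11 other treatments of the arrays it ran from -0.94 to -0.81. The first 30 bases are shown so that the sites can be told apart, and capitals mark bases that lie in another Rps24 probe as well.
Rps24 probe at -0.77, chr14:25312695-25315015, plus strand: aatgttggtgctggcaaaaagtgagtggag
Rps24 probe at -0.01, chr14:25311190-25312666, plus strand: tggccattatgagaagaaaaagacctcccg
Rps24 probe at 0.04, chr14:25315021-25315080, plus strand: ttgatGTTTTGCTGTGATGTGCAGATTTCT
Rps24 probe at 0.06, chr14:25315026-25315075, plus strand: GTTTTGCTGTGATGTGCAGATTTCTGAGAG

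Ribosomal protein genes have many processed copies in the genome, and some probes cannot separate them. Of the 80 brightest probes, 39 share a run of at least 20 bases with a probe filed under another name, and 25 share at least 30. The brightest probes of Rps27 and Rps29 match mm9 on chromosomes 9 and 2, other than the chromosomes that RefSeq gives for the genes. Values of such members may include signal from copies.

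Genes that make or run ribosomes were read beside their protein components. The lists were chosen with earlier results of these data known, and they are described by counts and medians over genes of mean log2 at least 7.5. Of 22 elongation factors and other genes with TOP mRNAs, 11 were higher (50%, against 50.2% of all genes) and 11 lower. Their median was 0.02, and 0 passed 0.5, against 27.3% of all genes. Pabpc1, which binds poly(A) tails, differed by 0.33, the elongation factor Eef2 by 0.30, and Eif3h by -0.43. The list had an SD of 0.19, wider than the 0.13 of the 77 ribosomal protein genes, and 27.3% of it lay within the spot SD, against their 58.4%.

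The genes that process rRNA and assemble the subunits lay higher in ELA-EpiSC. Of 64 genes, 54 were higher (84.4%, against 50.2% of all genes), with a median of 0.29. Past 0.5 lay 20 genes, 18 upward and 2 downward, a share of 31.2% that is near the 27.3% of all genes. Tsr1, which acts in late small subunit assembly, went from 12.59 to 13.51 (0.92), Utp20, of the small subunit processome, from 10.80 to 11.69 (0.88), and Nop14 from 11.26 to 12.07 (0.80). Imp3, which belongs to the same machinery, went the other way, from 15.42 to 14.67 (-0.75). The median of this list lay 0.33 above that of the cytosolic ribosomal proteins, and by 0.60 to 0.66 where 1 constant scaled each array.

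Of 14 genes of RNA polymerase I and its factors, 8 were higher (57.1%, against 50.2% of all genes), with a median of 0.29. The catalytic subunit Polr1a went from 12.57 to 13.39 (0.83), Twistnb differed by 0.72, and Taf1d by -1.14. Of 26 initiation factors, 17 were higher (65.4%, against the same 50.2%), with a median of 0.18. Eif1, which helps to select the start codon, went from 15.56 to 16.46 (0.91), Eif3c differed by 0.71 and Eif2s3x by -0.42. In both lists the genes spread to either side of 0.

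A mixed list joined mTORC1 and TOP regulators with p53 pathway genes (Trp53, Mdm2, Mdm4 and Cdkn1a) and transcription factors such as Myc, Sp1 and Yy1. It holds activators and repressors alike, so its counts do not give a direction of regulation. Of its 25 genes, 21 were higher (84%, against 50.2% of all genes), with a median of 0.24. Past 0.5 lay 7 of them (28%), near the 27.3% of all genes. Myc, which drives ribosome production, went from 11.08 to 12.55 (1.47), Eif4ebp1, the translation repressor that mTORC1 phosphorylates, from 15.68 to 16.68 (0.99), and Mdm2, the ligase of p53, from 13.69 to 14.54 (0.85). Mdm4 differed by -0.33. Myc alone of the 25 passed 1, as did 9.03% of all genes.

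The mitochondrial ribosomal proteins, which serve a separate ribosome, spread more widely than the cytosolic ones. Of 77 genes, 26 were higher (33.8%, against 50.2% of all genes) and 51 lower, with a median of -0.18 and an SD of 0.35. Past 0.5 lay 11 genes, 1 upward and 10 downward. That share of 14.3% and that SD lie under the 27.3% and 0.65 of all genes. Mrpl14 went from 14.24 to 12.79 (-1.44), Mrps21 from 14.65 to 13.65 (-1.001), and Mrps18b from 14.49 to 15.22 (0.73). Their median minus that of the cytosolic genes was -0.14, but it was 0.08 to 0.11 where 1 constant scaled each array, so its direction flips with the scaling.

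**Figure D4:**
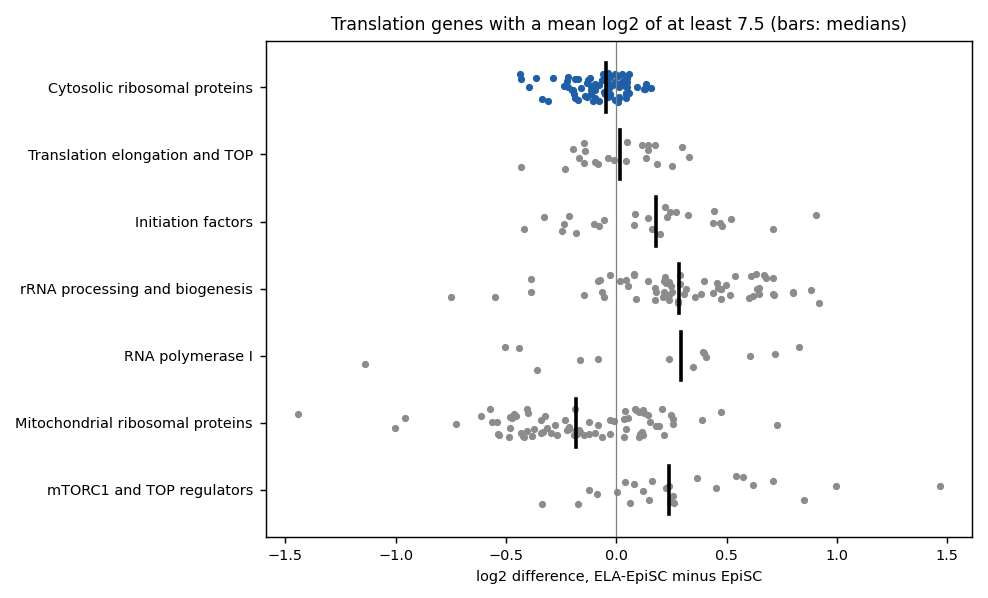
Log2 difference (x axis) of every gene with a mean log2 of at least 7.5 in the 77 cytosolic ribosomal protein genes (blue) and 6 other lists (grey), 1 list per row, with vertical jitter and a bar at the median. The medians are -0.05 for the cytosolic ribosomal proteins, 0.29 for rRNA processing and -0.18 for the mitochondrial ribosomal proteins.

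The side of 0 on which the ribosomal protein genes lay depended on how the arrays were scaled. Quantile normalization, as used above, put 23 of the 80 higher in ELA-EpiSC, and cyclic loess put 38 higher, with a median of -0.01. With 1 constant per array, 7 were higher after scaling to the median (-0.13), 1 after scaling to the 75th percentile (-0.36) and 1 with the scanner's processed signal scaled that way (-0.41). With the mean of the spike-in probes set equal by 1 constant, all 80 were higher, with a median of 0.49. But the median of all genes at a mean log2 of 7.5 or more moved to 0.54 as well. Relative to that median, the members lay at -0.05 with quantile normalization and at -0.01 with cyclic loess. Equal spike-ins gave the same -0.05 by construction, since 1 constant shifts the quantile values. The members lay at -0.28 with either constant after normexp and at -0.33 with the processed signal. Relative to the 860 other genes of mean log2 at least 16 they lay at -0.05 with quantile normalization, and the other bright genes moved with them under every scaling: their medians were 0.00 by quantile, -0.10 by the array median, -0.32 by the 75th percentile and 0.54 by the spike-ins.

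**Figure D5:**
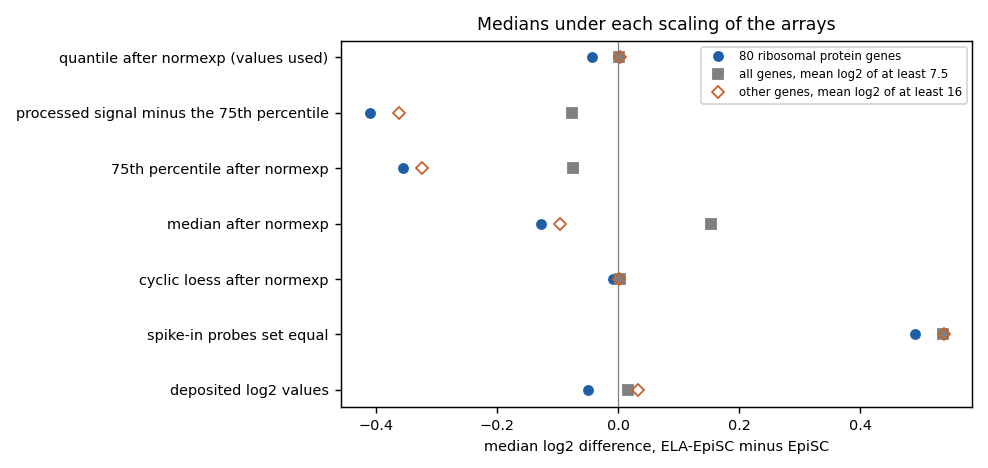
Median log2 difference (x axis) of the 80 ribosomal protein genes (blue circles), of all genes of mean log2 at least 7.5 (grey squares) and of other genes of mean log2 at least 16 (open diamonds) under 7 treatments of the arrays (y axis). The ribosomal protein median runs from -0.41 to 0.49 and lies close to the diamonds in each row.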

How the data were processed

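Total RNA of EpiSC and ELA-EpiSC was read on 1 array each. The deposited scanner files hold spot intensity, not normalized, with local background and detection flags; per the file headers they come from Feature Extraction 10.7.3.1 (the submitters' processing notes say 9.1) and place probes on mm9, and both arrays share 1 slide and scan. A further table by the authors, made per their methods by background correction and quantile normalization in limma, gives log2 values per probe and served as an alternative. Here, mean spot signal was corrected by normexp (offset 50, limma 3.58.1, R 4.3.3), control and outlier-flagged spots (158 on the EpiSC array, 117 on the ELA-EpiSC array) were dropped, arrays were quantile normalized and spots averaged as log2. The offset compresses dim differences, and quantile normalization hides a shift shared by all genes. Detection of a probe required the scanner's above-background flag in a share of 0.5 or more of its spots, and each gene took its brightest detected probe. Counts over genes used a mean log2 of at least 7.5. Other lists and tables were handled in Python, checked on simulated data.

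With 1 array per group no test was run. Members, lists and size thresholds were chosen with earlier results of these data known. Named genes were the members named with a final l, the 8 lowest and 8 highest members, members past 1, the P stalk and 5S genes, Rps27a and Fau, members whose probes opposed each other past 3 spot SDs (0 were found), and up to 3 genes per direction of other lists. In all, 18 other settings were tried, in background, scaling, probe rule and detection, 2 of them chosen after seeing the data. RefSeq names and promoter windows came from GRCm38.p6; proteins were not used here. No column of another sample was present. Some items that the rule names are not reported here.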

Additional observations from a re-analysis of the deposited data

How the results depend on the processing

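No paired analysis was possible because 1 array stands for each group, and for the same reason no replicate could be left out. The median of the 80 genes was -0.04; it was -0.41 with the processed signal less its 75th percentile, -0.36 with the 75th percentile after normexp and 0.49 with equal spike-ins, and its other values moved by less than the spot SD. The count higher in ELA-EpiSC was 23, and 1, 1, 7, 38 and 80 with the processed signal, the 75th percentile, the median, cyclic loess and equal spike-ins. The count past 1 was 1, and 0 with the mean of all detected probes, the second brightest probe or without the paralog members. The count past 0.5 was 1; it was 20 with the processed signal, 18 with the 75th percentile, 3 with the array median, 32 with equal spike-ins, 2 with the mean of all probes, 2 with the second brightest probe and 0 without the paralog members. The SD was 0.21, and 0.34 with the processed signal. Rpl10l went from 1.42 to -0.033 with the second brightest probe, which lay near background on both arrays. It was 0.69 with the mean of all probes, and ran from 1.25 to 2.36 over the background and scaling settings. Of 5 contrasts added after seeing the data, 2 moved by less than the spot SD (ribosomal protein minus other bright genes, and dim member probes minus all genes). Of the others, rRNA processing minus ribosomal protein genes was 0.33, and 0.66 with the processed signal and 0.60 with either constant after normexp; mitochondrial minus cytosolic was -0.14, and 0.11, 0.081 and 0.081 in those settings; the Rps24 gap was -0.82, and -0.94 in the deposited values. The large minus small subunit median moved by less than the spot SD under every alternative. Its sign changed, however, from -0.02 to 0.006 with the processed signal and to 0.006 with cyclic loess. The cause of these moves was not tested. Signals near background (Rpl10l, Rpl39l and Rpl3l) limit what can be said of those genes.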
